A study of Homo sapiens with 24 samples.

Results

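The last step of mitochondrial DNA loss was examined here in the DN-POLG cells, a HEK293 (human embryonic kidney) line that carries a doxycycline-inducible, dominant-negative form of the mitochondrial DNA polymerase gamma. The comparison set the 3 arrays of day 9 of doxycycline against the 3 arrays of day 6, which are 6 of the 24 arrays of the series, chosen by their titles. It asks what still changed once the cells had begun to respond, and what went back towards the level before induction. All of these cells, the day 0 cells included, carried the transgene and grew in high-glucose medium with uridine and pyruvate. Day 0 had no doxycycline, and days 3, 6 and 9 had it continuously. The other 6 HEK293 arrays of the fit held NDI1/AOX cells, which carry the same transgene and also express a yeast NADH dehydrogenase and an alternative oxidase, at days 0 and 9. Each replicate was described in the methods as a separate round of culture, and each RNA of day 6 or day 9 came from pooled flasks, more of them at day 9. Time, passage and duration of doxycycline cannot be told apart in this design, since no array came from uninduced cells kept for the same time.

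Mitochondrial DNA encodes core subunits of respiratory complexes I, III, IV and V, together with the rRNAs and tRNAs needed to make them. When a defective polymerase gamma stops its replication, the genome is diluted with each cell division, respiration fails, and NADH is no longer reoxidized in the mitochondria. Cells answer through transcription factors such as ATF4 (a stress-induced activator of amino acid genes), through one-carbon and serine metabolism, and through changes in chromatin and growth.

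The arrays reported MAS5 signals, a linear brightness scaled so that each array has the same trimmed mean, and every fold change below is a difference of mean log2 signals with 3 arrays a day. Of the arrays used, day 6 replicate 1 stood apart. Its correlation with the other 11 DN-POLG arrays was 0.830 to 0.898 over the tested probe sets, against 0.885 to 0.981 among those 11. Its ratio of 3′ to 5′ signal for beta-actin, a measure of RNA integrity on these arrays, was 8.92, whereas the other 5 arrays of days 6 and 9 lay between 1.05 and 1.77. Whether the ratio differed between the days could not be tested to a useful level, since 3 against 3 arrays allow no p under 0.1 (exact permutation test, two-sided, p = 0.70 for actin and for GAPDH). The median SD of log2 signal within a group was 0.44 at day 6 and 0.27 at day 9. Some marker genes of HEK293 cells were bright at both days, for example KRT8, KRT18, CDH2 and NEFL, and LHX1 and NEFM were near the floor. Others of that list were dim, with mean signals of 75.2 for NES, 89.97 for EYA1 and 155 for PAX2. WT1, SOX2 and MEIS2 lay between, with 347, 409 and 930. Of the markers of blood cells, CD3E, HBB and PTPRC had mean signals of 56.6, 117 and 26.1. Some markers of epithelial and fibroblast cells were bright as well, with EPCAM at 4875, CAV1 at 3197, CD44 at 1571 and TWIST1 at 1528. No gene of the blood, epithelial or fibroblast lists was called, and of the HEK293 list VIM alone was called. Tested were only 1 of 4 listed blood markers, 2 of 5 epithelial, 7 of 12 fibroblast and 11 of 14 HEK293 markers. The others could not be called, so the lack of calls says little about other cell types.

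Few genes passed the test between day 6 and day 9, although 2378 had a probe set at an unadjusted p under 0.05. Of 12104 genes tested, 28 were higher at day 9 (0.231%) and 39 were lower (0.322%) at an adjusted p up to 0.05 (limma, Benjamini-Hochberg over 23132 probe sets). Without day 6 replicate 1, 22 genes were higher (0.182%) and 23 were lower (0.19%), and 15 of the rises and 15 of the falls were shared by both fits. Another array weighed more on the result. Without day 9 replicate 3 only 2 rises, VIM and TARS1, and 5 falls passed. Of these falls, 2 were among the 39, DAB2 and IPMK. Of the falls described below, IPMK alone passed in that fit. Rises and falls numbered 57 and 68 without day 6 replicate 2 and 21 and 11 without day 6 replicate 3. Without day 9 replicate 2 they numbered 16 and 42. A fit on the 6 arrays of days 6 and 9 alone called no gene, with 1539 genes at an unadjusted p under 0.05. In 26 of the 28 genes that rose, day 9 replicate 3 was the highest of the day 9 arrays, and in 26 of the 39 that fell it was the lowest. Its actin ratio of 1.77 was the highest of day 9; its part in the result was not tested. Setting every array to the same median gave 29 rises and 26 falls.

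The falls were, for the most part, at the probe set of a gene with the highest mean signal (its brightest probe set). Of the 39 genes, 27 passed at the brightest probe set, and the changes at the probe set with the smallest p ran from -2.47 to -0.94 on the log2 scale. The median of those 39 differences was -1.44 between days 6 and 9. The same probe sets had a median difference from day 0 of -0.40 at day 6 and -1.80 at day 9. The medians over the brightest probe sets of all genes tested were -0.01 and 0.01. The probe sets of the falls were picked by their difference between days 6 and 9, and those of all genes were not. The distance of the falls from day 0 at day 9 follows in part from that choice.

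KAT6A, a histone acetyltransferase, gave the clearest fall among the chromatin genes. Its signals were 1177, 1267 and 1505 at day 6 and 525, 530 and 450 at day 9, after 1947 to 2441 at day 0. The 2 days did not overlap, which held for 1833 of 12104 genes at their brightest probe set. The mean was lower at each day after day 3. The fold change was 2.62 downward (log2 -1.39 ± 0.20 SE, adjusted p = 0.0089 by limma), and it was -1.46 without day 6 replicate 1 (adjusted p = 0.021). KDM2A, a histone H3 lysine demethylase, read 1102, 797 and 1248 at day 6 and 404, 642 and 457 at day 9. That was a log2 change of -1.07 ± 0.21 (adjusted p = 0.046 by limma), which did not pass without day 6 replicate 1 (adjusted p = 0.082). These were the only members of the list of histone modifying enzymes that passed (2 of 52 tested, both lower, beside 0.322% of all genes). The median of that list was -0.15, beside -0.02 for all genes, and 69.2% of its members were below 0, beside 52.1% of all genes. Without day 6 replicate 1 the list's median was -0.0065.

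RBBP6, a ubiquitin ligase that binds the retinoblastoma protein, was called lower at 2 probe sets. Its other tested probe sets differed by -1.05, -0.04, 0.24, 0.58 and 1.11 without passing, so the probe sets of this gene did not move together. At the brighter called one the signals were 1142, 458 and 649 at day 6 and 223, 204 and 166 at day 9. Replicate 1 was the highest of day 6 there, and all day 9 arrays lay below every day 6 array. The log2 change was -1.83 ± 0.29 (adjusted p = 0.012 by limma) and -1.47 without that replicate (adjusted p = 0.029). With day 0 signals of 1571 to 1866, this probe set fell in both intervals, by -1.33 up to day 6 and by -3.16 up to day 9.

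VANGL1, a membrane protein of planar cell polarity signaling, fell at 3 probe sets. At the one that was called in both fits it read 207, 151 and 275 at day 6 and 59.3, 57.3 and 33.9 at day 9. The day 9 values sat at the filter's limit of 57.2, so the size of the drop (log2 -2.07 ± 0.29, adjusted p = 0.0089 by limma) is less sure than its direction. At the brightest VANGL1 probe set the change was -1.31 (adjusted p = 0.018). VANGL1 was the only gene called in the list of Wnt and planar polarity genes (1 of 34 tested, beside 0.322% of all genes called lower). In it 25 of 34 members were below 0 (73.5%, beside 52.1% of all genes), and the median was -0.19, beside -0.02 for all genes. Next in that list came GSK3B, a kinase that marks beta-catenin for destruction, at -0.83 (adjusted p = 0.087), and SFRP1, a secreted Wnt antagonist, at 0.92 (adjusted p = 0.0998), neither of which passed.

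IPMK, the inositol polyphosphate multikinase, behaved differently from these. It read 252, 177 and 196 at day 0, then 262, 303 and 385 at day 6, and 64.8, 124 and 83.7 at day 9. The day 6 arrays were all above the day 0 arrays and the day 9 arrays were all below them. The change between days 6 and 9 was -1.84 ± 0.24 on the log2 scale (3.57-fold lower, adjusted p = 0.0064 by limma), and -1.96 without day 6 replicate 1 (adjusted p = 0.010). Apart from the fit on 6 arrays, it passed in each setting that tested it. The called probe sets of VIM and TARS1 did so too, but some settings left them out, among them that with each gene's brightest probe set alone.

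2 regulators of mitochondrial and lipid metabolism were among the falls. NRF1, nuclear respiratory factor 1, an activator of nuclear genes for respiratory subunits, read 811, 479 and 517 at day 6 and 290, 256 and 174 at day 9. Replicate 1 was again the highest of day 6, and with it the log2 change was -1.32 ± 0.23 (adjusted p = 0.023 by limma). Without it the change was -1.08 and the call was lost (adjusted p = 0.055). The day 0 arrays, at 454 to 557, were level with the other two of day 6. PPARA, the fatty acid-sensing nuclear receptor that drives fatty acid oxidation, read 165, 138 and 168 at day 6 and 65.6, 88.8 and 57.6 at day 9, after 238 to 272 at day 0. Its log2 change was -1.17 ± 0.23 (adjusted p = 0.040 by limma), and this call too was lost without day 6 replicate 1 (adjusted p = 0.082), although the change stayed at -1.13. The other tested PPARA probe sets differed by -2.05, -0.02, 0.09, 0.13 and 1.02 without passing, so the probe sets of this gene did not move together. Those of NRF1 differed by -0.74, -0.77, -0.73 and 0.46 without passing.

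NPAT, the coactivator of replication-dependent histone genes at the start of S phase, read 538, 531 and 674 at day 6 and 297, 247 and 222 at day 9. The log2 change was -1.19 ± 0.20 (adjusted p = 0.018 by limma), and it kept its call without day 6 replicate 1 (adjusted p = 0.032). MED13, a subunit of the Mediator kinase module, read 5303, 4064 and 4243 at day 6 and 2276, 2359 and 2308 at day 9, with day 0 at 4341 to 5112. Its day 6 arrays overlapped those of day 0, and it then fell 1.95-fold (log2 -0.96 ± 0.16, adjusted p = 0.018 by limma). This was its brightest probe set, and the other tested MED13 probe sets differed by -0.64, -0.18 and 0.72 without passing. FADD, the adaptor that links death receptors to caspase-8, read 1067, 1121 and 966 at day 6 and 471, 377 and 248 at day 9 (log2 -1.57, adjusted p = 0.044, and 0.082 without day 6 replicate 1).

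Among the other falls, picked after their values were seen, were genes of gene regulation. ZNF148, VEZF1, ZBTB4, NFIA, MYCL and BHLHE41 encode DNA-binding transcription factors, and their log2 changes were -1.51, -1.04, -1.76, -1.37, -1.41 and -0.97. TNRC6C, which carries out microRNA-directed silencing, changed by -1.49, and INTS5, a subunit of the Integrator complex that processes small nuclear RNAs, by -1.58. CYLD, a deubiquitinase of NF-kappaB signaling, changed by -1.45. Among these named, ZNF148 alone passed without day 6 replicate 1 (adjusted p = 0.044). ZNF148, VEZF1, ZBTB4, NFIA and CYLD were called at a secondary probe set, and their brightest differed by -0.89, -0.52, -0.98, -0.67 and -0.30 without passing. MYCL, BHLHE41, TNRC6C and INTS5 were called at the brightest. Their other tested probe sets differed without passing by 0.55 for MYCL, -0.63 and 0.43 for BHLHE41, -0.12 for TNRC6C and -1.02 for INTS5. Falls of other kinds included UCN, the neuropeptide urocortin, at -2.17 (adjusted p = 0.046, and 0.10 without day 6 replicate 1). EIF1AD, TMCC1, ZNF564 and ZSWIM3 had some of the largest falls, at -1.85, -3.69, -1.57 and -1.54. The TMCC1 value came from a probe set whose day 9 signals were 12.7, 46.4 and 1.77, its second called probe set gave -1.34, and its brightest differed by -0.21.

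**Figure D1:**
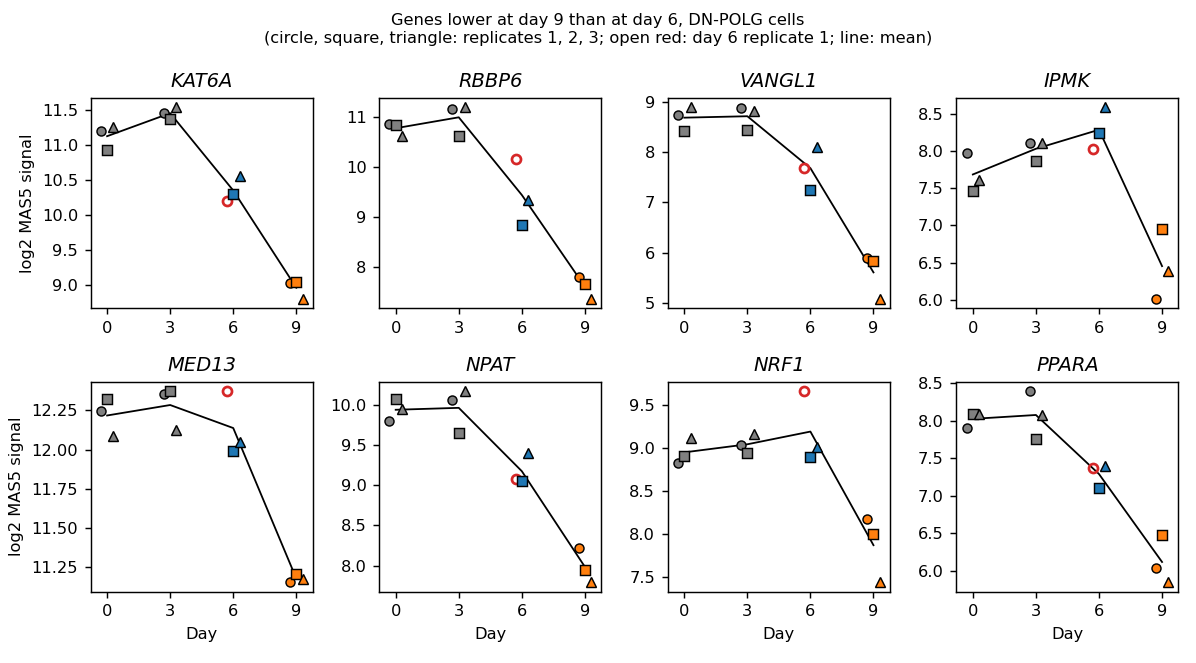
Signal of 8 genes that were lower at day 9 than at day 6, as log2 MAS5 signal against the day of doxycycline in DN-POLG cells, with 1 point per array (3 a day) and a line through the daily means. KAT6A, RBBP6, VANGL1, NPAT and PPARA were already lower at day 6 than at day 0, while MED13 and NRF1 fell after day 6 and IPMK was higher at day 6 than at day 0; the day 9 points lie below all day 6 points in each panel.

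The rises were mostly at secondary probe sets. Of the 28 genes, 7 passed at the brightest probe set, and for the other 21 the brightest probe set had a median log2 change of 0.11, with a range from -0.72 to 0.99. At the called probe sets the changes ran from 1.19 to 3.39 with a median of 2.18. The same probe sets had a median difference from day 0 of -0.10 at day 6 and 2.17 at day 9. They too were picked by the difference between days 6 and 9, from which the distance at day 9 follows in part. Probe sets of one gene can target different transcript ends, introns or related copies, and which transcripts these ones read was not tested.

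VIM, the intermediate filament protein vimentin and a HEK293 marker, had the largest rise. One probe set read 83.4, 128 and 139 at day 6 and 1001, 1081 and 1583 at day 9, a separation of more than the spread within either day. That is a 10.5-fold rise (log2 3.39 ± 0.40, adjusted p = 0.0028 by limma, and 0.020 without day 6 replicate 1). The brightest VIM probe set differed by 0.24 (adjusted p = 0.78). TARS1, the cytosolic threonyl-tRNA synthetase, showed the same contrast. Its called probe set went from 83.8, 63.0 and 70.0 to 275, 274 and 237, a log2 change of 1.86 ± 0.22 (adjusted p = 0.0028 by limma), and its brightest probe set differed by 0.05 (adjusted p = 0.94). TARS1 was the only one of 17 cytosolic tRNA synthetases to pass, beside 0.231% of all genes called higher.

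The same contrast between probe sets was seen in some genes of protein synthesis. RPS14, a small-subunit ribosomal protein, went from a mean signal of 78.9 ± 18.7 (SD, n = 3) at day 6 to signals of 376, 399 and 674 at day 9 at one probe set (log2 2.59 ± 0.36, adjusted p = 0.0089 by limma), and a second probe set rose by 1.92. Its brightest probe set differed by 0.11. RPS19 rose by 1.40 at one probe set and differed by 0.08 at its brightest. Both belong to the list of cytosolic ribosomal proteins, where 2 of 44 tested genes were called, beside 0.231% of all genes called higher. The brightest probe sets of all 44 lay above 0 by at most 0.28. Their median was 0.10, or 0.31 without day 6 replicate 1. RPS15A and RPL37A, outside that list, rose by 2.11 and 1.87 at one probe set each and differed by 0.08 and 0.04 at the brightest. Both calls were lost without day 6 replicate 1 (adjusted p = 0.054 and 0.085). NACA, a chaperone of nascent chains at the ribosome, went from 513, 446 and 561 to 2595, 2799 and 6558 at a secondary probe set. That was a log2 change of 2.84 ± 0.42 (adjusted p = 0.011 by limma), with day 9 replicate 3 far above the others. The brightest NACA probe set differed by 0.19 (adjusted p = 0.77 by limma). EIF1, a start-codon selection factor, rose by 2.00 at one probe set (adjusted p = 0.049, and 0.082 without day 6 replicate 1) and differed by 0.10 at its brightest.

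HNRNPA1, an abundant splicing regulator, went from 536, 469 and 357 to 2226, 2145 and 4041 (log2 2.58 ± 0.36, adjusted p = 0.0089 by limma), while its brightest probe set differed by 0.36. HNRNPM rose by 2.04 and SRSF11 by 2.73 in the same list of splicing factors and CLK kinases, where 3 of 41 tested genes were called, all at secondary probe sets, beside 0.231% of all genes. The SRSF11 call was lost without day 6 replicate 1 (adjusted p = 0.082), and its brightest probe set differed by -0.21. CCNL1, a cyclin of splicing speckles, went from 94.7, 90.9 and 76.9 to 427, 531 and 661 at a secondary probe set (log2 2.61, adjusted p = 0.0089 by limma). The brightest CCNL1 probe set differed by 0.99 (adjusted p = 0.32 by limma). MALAT1, a long noncoding RNA kept in those speckles, had 12 tested probe sets, and all 12 lay above 0, from 0.08 to 2.26. The 1 that passed read 783, 1300 and 910 at day 6 and 3826, 4915 and 5422 at day 9 (adjusted p = 0.012 by limma). MALAT1 and CCNL1 were the 2 called of 22 tested genes in the list of nuclear-retained RNAs, beside 0.231% of all genes called higher.

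Some rises stood at the only or brightest probe set. The probe set annotated to SNORA72, a small nucleolar RNA that guides pseudouridylation of rRNA, went from 138, 71.5 and 96.0 to 336, 603 and 870 (log2 2.51 ± 0.39, adjusted p = 0.012 by limma). Whether it reads the small nucleolar RNA itself or a longer transcript was not tested. TAF1D, a subunit of the RNA polymerase I selectivity factor whose gene also hosts small nucleolar RNAs, went from 1046, 1054 and 1119 to 2378, 3546 and 4973 (log2 1.70 ± 0.33, adjusted p = 0.037, and 0.082 without day 6 replicate 1). SFXN3, a mitochondrial serine transporter, rose by 2.06 at the brightest of its probe sets (adjusted p = 0.030), and by 2.42 without day 6 replicate 1 (adjusted p = 0.029). Its other tested probe sets differed by -0.31 and -0.11 (adjusted p = 0.85 and 0.92 by limma). At day 6 the latter, with a mean of 382, was brighter than the called one, with 346. SQLE, the squalene epoxidase of cholesterol synthesis, rose by 2.66 at a secondary probe set (adjusted p = 0.011). It was the only one of 21 tested cholesterol genes to pass, beside 0.231% of all genes called higher. Its brightest probe set differed by 0.66 (adjusted p = 0.52).

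**Figure D2:**
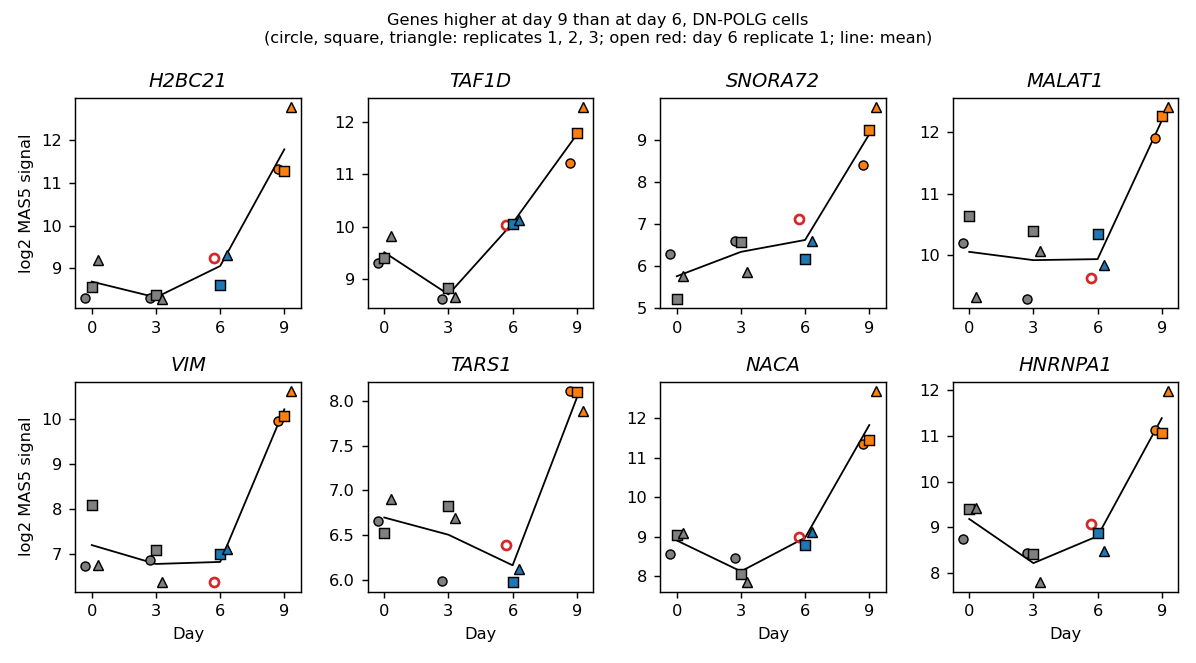
Signal of 8 genes that were higher at day 9 than at day 6, as log2 MAS5 signal against the day of doxycycline in DN-POLG cells, with 1 point per array (3 a day) and a line through the daily means. The levels at days 0, 3 and 6 lie close together in most panels, and the day 9 points lie above all day 6 points; day 9 replicate 3 (triangle) is the highest of day 9 in every panel but that of TARS1.

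Histone genes were looked at together after H2BC21 had been seen to rise and NPAT to fall, so what follows is a description. H2BC21 encodes a histone H2B whose transcript, unlike most of its class, can be polyadenylated. It read 606, 390 and 639 at day 6 and 2554, 2459 and 6929 at day 9, so that the lowest day 9 array was above the highest of day 6 and replicate 3 was far above its companions. The log2 change was 2.72 ± 0.45 (6.61-fold, adjusted p = 0.018 by limma, and 0.044 without day 6 replicate 1). H2BC11 read 151, 35.5 and 61.4 at day 6 and 213, 238 and 325 at day 9. It passed without day 6 replicate 1 (log2 2.45, adjusted p = 0.032) and not with all arrays (1.88, adjusted p = 0.092). Of 24 histone genes tested, 20 lay above 0, with a median of 0.46 beside -0.02 for all genes. H2BC21 was the 1 called, beside 0.231% of all genes called higher. Histone genes are near-identical in sequence, so that a probe set may read several of them.

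The promoters of these 2 genes are shown because they belong to the same class and share its known control elements. They are given from 250 bases before to 50 bases after the transcription start (RefSeq, GRCh38.p14, minus strand, chr1:149886633-149886932 for H2BC21 and chr6:27132746-27133045 for H2BC11). Capitals mark, on either strand, the octamer ATTTGCAT that binds OCT1, the TATA box TATAAA and the CCAAT box CCAAT.
H2BC21: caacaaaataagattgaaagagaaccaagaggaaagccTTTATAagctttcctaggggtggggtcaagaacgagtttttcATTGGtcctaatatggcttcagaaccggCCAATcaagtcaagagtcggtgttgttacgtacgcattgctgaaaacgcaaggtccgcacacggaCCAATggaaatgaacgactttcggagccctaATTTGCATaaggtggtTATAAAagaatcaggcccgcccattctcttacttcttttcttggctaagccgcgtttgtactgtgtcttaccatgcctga
H2BC11: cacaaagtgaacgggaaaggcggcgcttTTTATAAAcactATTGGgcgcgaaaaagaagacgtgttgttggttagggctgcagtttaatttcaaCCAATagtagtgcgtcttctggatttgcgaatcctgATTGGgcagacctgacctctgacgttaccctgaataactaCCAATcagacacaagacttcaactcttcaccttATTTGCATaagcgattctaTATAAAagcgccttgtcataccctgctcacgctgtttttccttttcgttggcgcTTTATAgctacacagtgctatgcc

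The octamer began 46 bases before the start of H2BC21 and 47 bases before that of H2BC11, with a TATA box 30 and 28 bases before the start. The octamer was in 13 of 17 H2B promoters (76.5%), in 41.1% of 56 histone promoters and in 1.80% of all 27305 promoters. TATAAA was in 3264 of all promoters and CCAAT in 9747, which is 35.7%. These matches say what letters are in the windows, and no binding was measured here. For NRF1, the core of its known site, GCATGCGC, was in the promoters of FADD alone among 34 fallen genes and of ZNF664 alone among 21 that rose. That is 2.94% and 4.76%, beside 5.59% of the promoters of tested genes.

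The genes that rose and fell also differed in length, as a description. The median span of the gene on GRCh38.p14 was 13.3 kb for the 28 that rose and 56.3 kb for the 39 that fell, beside 30.8 kb for all genes tested. The median GC content of the promoters was 60.3% for 21 of the genes that rose, 68.8% for 34 that fell and 65.0% for the tested genes with a promoter in the table.

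Some called genes went back to the day 0 level. 3 such genes, singled out after their values were seen, were low at day 6 and not at day 9. ARHGAP24, a GTPase-activating protein for Rac, read 54.1, 66.7 and 125 at day 0, 18.4, 14.1 and 15.7 at day 6, and 62.0, 86.8 and 89.5 at day 9. All day 6 arrays were below all others, and the day 0 and day 9 arrays overlapped. The rise was 2.29 ± 0.34 on the log2 scale (adjusted p = 0.011 by limma, and 0.029 without day 6 replicate 1), and day 9 differed from day 0 by 0.03. IQCK, an IQ-motif protein, was called at a secondary probe set. It read 184 to 221 at day 0, 73.0, 102 and 97.0 at day 6 and 164, 228 and 227 at day 9. The log2 change was 1.19 (adjusted p = 0.023 by limma, and 0.055 without day 6 replicate 1). The brightest IQCK probe set differed by 0.62 between days 6 and 9 (adjusted p = 0.31 by limma). LINC01535, a long noncoding RNA, read 8.39, 8.11 and 9.04 at day 6 and 41.0, 57.3 and 133.3 at day 9 (log2 3.00, adjusted p = 0.018, and 0.054 without day 6 replicate 1), and day 9 differed from day 0 by -0.46. The day 6 signals of ARHGAP24 and LINC01535 lie under the filter's limit, which makes the size of these rises unsure.

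Other genes took the same course in their means without passing. MYC, the growth-promoting transcription factor, differed from day 0 by -1.49 at day 6 and by -0.43 at day 9 (1.06 between the days, adjusted p = 0.43). SFRP1 differed by -0.93 and -0.01. TRA2A, a splicing activator, differed by -1.05 and -0.02, and DNMT3B, a DNA methyltransferase, by -0.93 and -0.40. CDT1, which loads the replicative helicase, took the opposite course, at 1.11 above day 0 at day 6 and -0.10 at day 9, but this rested in part on day 6 replicate 1, since the difference between the days was -1.21 with it and -0.64 without it (adjusted p = 0.24 and 0.48).

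Transcripts of mitochondrial DNA did not pass in this interval. COX2, a subunit of cytochrome oxidase, read 23162, 23808 and 18079 at day 6 and 13797, 11823 and 10692 at day 9, so that the days did not overlap, yet the change of -0.84 ± 0.24 gave an adjusted p of 0.14 (limma). It had been 36646 to 57936 at day 0. Days without overlap were found at the brightest probe set of 1833 of the 12104 genes tested. ATP6, of the ATP synthase, read 10732, 2953 and 7698 at day 6 and 2891, 4418 and 2712 at day 9, and these overlapped (log2 -0.94, adjusted p = 0.32). At a second, dim ATP6 probe set the days did not overlap, with means of 93.2 and 22.0, and the difference was -2.21 (adjusted p = 0.13). ND6, of complex I, read 2195, 434 and 931 at day 6 and 432, 580 and 547 at day 9 (log2 -0.90, and -0.30 without day 6 replicate 1). COX1 differed by 0.04, ND2 by -0.04 and ND4 by 0.10. The COX1 probe set also differed from day 0 by only -0.16 at day 9. By RNA-seq, the study counted every transcript encoded by mitochondrial DNA among its changed genes. Why this probe set did not fall was not tested. None of the 7 measured transcripts was called.

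POLG stayed high. At one POLG probe set the signals were 280 to 421 at day 0, 3773, 3719 and 4570 at day 6 and 2834, 4739 and 4268 at day 9, a difference of -0.05 ± 0.53 (adjusted p = 0.98 by limma). A second POLG probe set differed by -0.27. Which share of these signals came from the transgene was not tested.

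**Figure D3:**
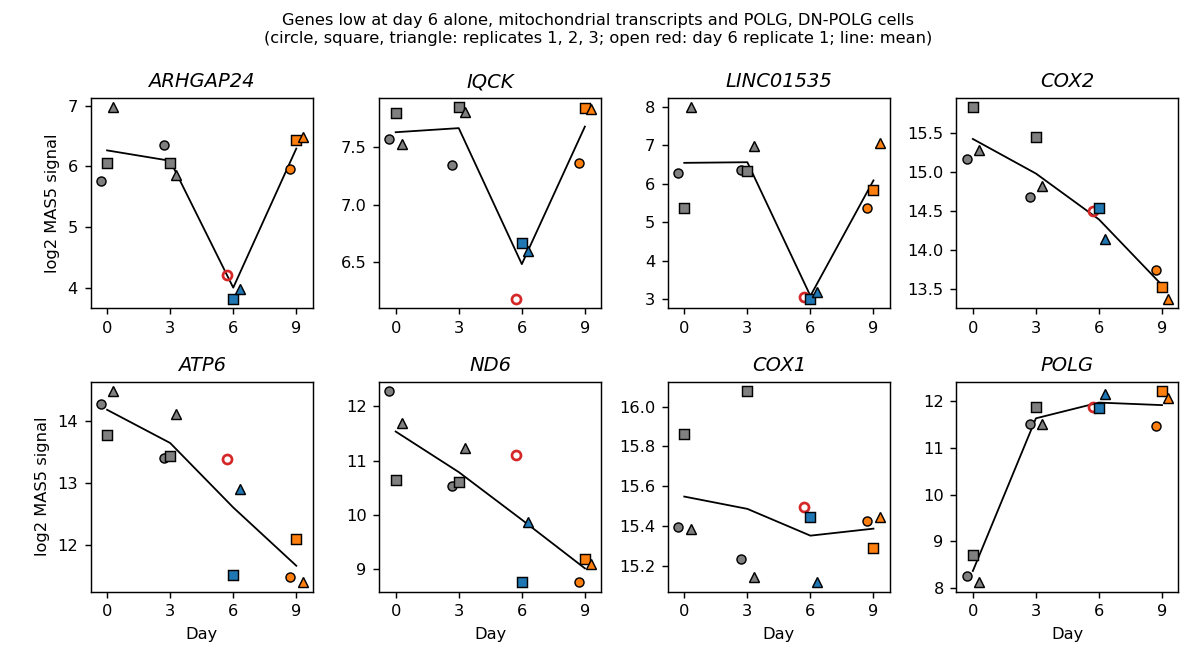
log2 MAS5 signal against the day of doxycycline in DN-POLG cells for ARHGAP24, IQCK and LINC01535, which were low at day 6 alone, for 4 mitochondrial transcripts and for POLG, with 1 point per array (3 a day) and a line through the daily means. The first 3 dip at day 6 and are back within the day 0 values at day 9 or overlap them, the mean of COX2 is lower at each later day, that of COX1 stays near its start, and POLG is high from day 3 on.

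Most lists of metabolic and stress genes held no called gene in this interval. Of 37 lists, 30 held no gene that passed, and over the 924 listed genes tested 0.974% were higher and 0.325% lower, beside 0.231% and 0.322% of all genes. Of 36 tested targets of ATF4 none passed, and the median was 0.17, or 0.35 without day 6 replicate 1. ATF4 itself differed by 0.24 (adjusted p = 0.75). PCK2, the mitochondrial PEP carboxykinase, differed by 0.65 (adjusted p = 0.33), and MTHFD2, of the mitochondrial folate pathway, by 0.37 (adjusted p = 0.36), both without passing. Among 20 polyamine genes, SAT1, the polyamine acetyltransferase, differed by 0.46 (adjusted p = 0.49), and among 15 genes of the methionine cycle MTRR, methionine synthase reductase, differed by -0.70 (adjusted p = 0.21). GDF15, a secreted signal of mitochondrial stress, differed by 0.32 (adjusted p = 0.73), and MFSD2A, a lipid transporter, by -0.40. FGF21 and BHMT were under the filter on low signals.

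Lists of nuclear-encoded respiratory genes had medians a little above 0. In complex I 20 of 33 tested genes lay above 0, with a median of 0.14. In complexes III to V 28 of 33 tested genes lay above 0, with a median of 0.17, and in the TCA cycle 19 of 22 did, with a median of 0.14, beside 47.9% of all genes. Without day 6 replicate 1 the last 2 medians were 0.27 and 0.086. None of these genes passed. ATP5MC3, of the ATP synthase ring, differed by 0.46 (adjusted p = 0.35), COX6C by 0.45 (adjusted p = 0.37) and MDH1, the cytosolic malate dehydrogenase, by 0.55 (adjusted p = 0.28). MDH1 was at 0.30 without day 6 replicate 1. The list of NADH shuttles and NAD synthesis had a median of 0.24, with 20 of 26 above 0 and none called.

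Cell cycle genes lay mostly below 0. Of 41 tested genes of DNA replication 32 lay below 0, with a median of -0.14, and of 35 mitosis genes 26 did, with a median of -0.19. That is 78% and 74.3%, beside 52.1% of all genes, whose median was -0.02. None of the genes in these lists passed. CCNE2, cyclin E2 of the G1 to S transition, was nearest to the threshold. It differed by -0.90 ± 0.23 (adjusted p = 0.10 by limma), from 2219 ± 396 at day 6 to 1190 ± 207 at day 9 (SD, n = 3). AURKA, the mitotic kinase, differed by -0.59 (adjusted p = 0.20). CDKN1A, an inhibitor of cyclin-dependent kinases, differed by -1.15 (adjusted p = 0.38), and by -0.69 without day 6 replicate 1. TET1, which oxidizes methylated cytosine, differed by -0.71 (adjusted p = 0.0998).

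Immediate early genes lay on both sides of 0 without passing. EGR1 and EGR3, growth factor-induced transcription factors, differed by -2.61 (adjusted p = 0.20) and -1.20 (adjusted p = 0.26), while ID3, an inhibitor of basic helix-loop-helix factors, differed by 0.99 (adjusted p = 0.15) and JUNB by 0.90 (adjusted p = 0.27). EGR1 went from 1509 ± 1220 at day 6 to 189 ± 37.0 at day 9 (SD, n = 3), with a wide spread at day 6.

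Leaving out day 6 replicate 1 added 15 genes. Among these were falls of JAK2, the cytokine receptor kinase, CLOCK, a circadian transcription factor, ARID2, a subunit of the SWI/SNF remodeler, PUM2, an RNA-binding repressor, and UGT8, a galactosyltransferase of myelin lipids. Each was called at one probe set. For JAK2 this was a dim one, which read 3.86, 143 and 162 at day 6 and 36.0, 39.5 and 39.5 at day 9, so that its change was -0.23 with all arrays (adjusted p = 0.95) and -1.99 without replicate 1 (adjusted p = 0.029). Its brightest probe set differed by 0.23 with all arrays and by -0.19 without it (adjusted p = 0.92). HIVEP2, a zinc finger factor, differed by -1.39 with it and -2.01 without it. ID4, an inhibitor of differentiation, differed by 2.69 (adjusted p = 0.051) and by 3.15 without it (adjusted p = 0.044) at a dim probe set with a day 6 mean of 44.4. The brightest ID4 probe set differed the other way, by -0.48. CREBRF, a regulator of CREB3 proteins, differed by 1.11 and 1.37 (adjusted p = 0.065 and 0.029) at one probe set and by 0.04 at its brightest with all arrays. SNORA78, read at one probe set, had 382, 12.9 and 33.7 at day 6 and 313 to 815 at day 9. Which transcript that probe set reads was not tested.

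**Figure D4:**
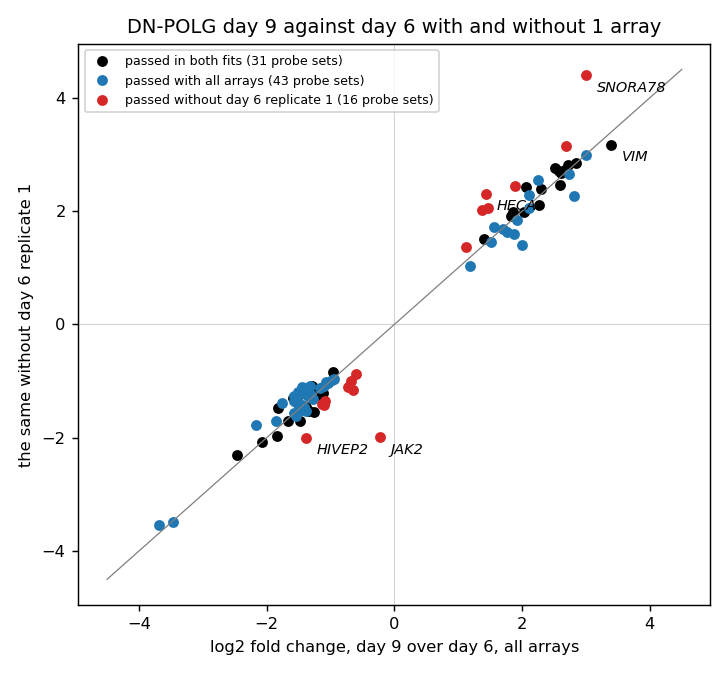
log2 fold change of day 9 over day 6 with all arrays (horizontal) and without day 6 replicate 1 (vertical) for the 90 probe sets that passed in either fit, with the line of equal values. 31 probe sets passed in both fits, 43 with all arrays alone and 16 without that array alone; JAK2, SNORA78 and HECA lie farthest from the line.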

How the data were processed

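Total RNA from the cells was hybridized to 24 Affymetrix arrays of 54675 probe sets. Per the labels, the authors made MAS5 signals in Expression Console; the deposited values are linear intensities whose trimmed mean was 500.1 on every array (2% cut at each end). Here log2 signals were fitted in limma 3.58.1 (R 4.3.3) as 6 group means over the 18 HEK293 arrays. Tested were 23132 probe sets that the platform annotation gives 1 symbol and whose mean log2 signal was at least 5.84 (a signal of 57.2), the median over the array. A gene was called once if any of its probe sets had an adjusted p up to 0.05. Named were POLG and mitochondrial transcripts, the 10 largest rises and falls (with and without day 6 replicate 1), up to 4 genes with the smallest p of each list, and 9 genes of the study; others were named after their values were seen. The largest rises and falls were taken only from called probe sets whose days did not overlap, so that trait was fixed for them. Members and lists were chosen with earlier results of these data known. The number of arrays limits the precision. Alternatives covered normalization, filter, pseudocount, arrays in the fit, replicate block, array weights, unmoderated ANOVA, probe sets and single arrays left out.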

Additional observations from a re-analysis of the deposited data

How the results depend on the processing

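The 28 rises and 39 falls became 11 and 5 with no filter on low signals, 0 and 0 with the 6 arrays alone, 11 and 3 with the 12 DN-POLG arrays, and 13 and 25 with probe sets averaged per gene. With each gene's brightest probe set alone, an alternative chosen after seeing the data, they became 7 and 29. Leaving out 1 array gave 2 to 57 rises and 5 to 68 falls. With a replicate block for the culture round, 30 genes rose and 13 fell; same-numbered arrays of days 6 and 9 deviated together at r of -0.16 to -0.02, no array correlating best with its own number, so the numbers were not taken to pair the arrays. Of the 20 named rises and falls, 8 passed with no filter, 0 with 6 arrays, 10 with 12, 12 by the methods' ANOVA, 13 with averaged probe sets, 9 at brightest probe sets alone and 2 to 18 with 1 array left out. The 12 listed genes called became 7 with no filter, 0 with 6 arrays, 5 with averaged probe sets, 3 at brightest probe sets alone and 1 to 16 with 1 array left out. The cause was not tested. Signs turned for some genes that were not called. COX1 was -0.063 after quantile normalization. With array weights COX3 was 0.52, ND2 0.014 and one POLG probe set 0.027. With averaged probe sets JAK2 was 0.0012, MFSD2A 0.58 and ND4 -0.068. With 1 array left out, COX1 ran from -0.082 to 0.11, COX3 from -0.97 to 0.47, ND2 from -0.24 to 0.11, the ND4 probe sets from -0.40 to 0.0058 and from -0.071 to 0.29, the POLG probe sets from -0.55 to 0.071 and from -0.20 to 0.17, and JAK2 from -1.99 to 0.70. The actin ratio differed by -2.42 between the days and the GAPDH ratio by -0.32. Signals near or under 57.2 give the sign of a change better than its size.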

Other observations

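The NDI1/AOX cells at day 9, which form no part of the comparison, gave values beside those above. H2BC21 read 1511, 3643 and 918, VIM at the called probe set 1205, 1907 and 843, and NACA 2806, 7190 and 1997. KAT6A read 639, 463 and 388, VANGL1 35.3 to 58.8 at the probe set called in both fits, and NPAT 224, 204 and 210. ARHGAP24 read 111, 104 and 46.3. No NDI1/AOX array was made at day 6, so that the change between days 6 and 9 cannot be compared between the cells.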
